A study of Mus musculus with 6 samples.

Results

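The genes described here are Pdcd1, Ctla4, Lag3, Tigit, Icos and Cd28, which encode checkpoint and costimulatory receptors carried by lymphocytes. They were chosen by symbol from a table of 21760 genes, with earlier results of these libraries known, among them the differences of Ctla4 and Pdcd1 between genotypes. All 6 had reads in every library and passed the filter on low counts, as did 15560 genes in all. The libraries come from macrophages that were sorted out of subcutaneous MC38 tumours, a mouse colon carcinoma line, grown for 16 days on C57BL6 mice. In the WT group (2 libraries) the tumour was wild type. In the KO groups it was knocked out for Xkr8, a scramblase that brings phosphatidylserine to the surface of dying cells, as clone 1 (2 libraries) or clone 2 (2 libraries). Each library is labelled as a separate mouse. The mice received no further treatment and their age is not given in the sources used here, nor are the markers of the sorting gate. Each KO line is a clone, so loss of Xkr8 and other traits of a clone cannot be told apart within it, and mice bearing 1 clone share its origin.

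T cells need a costimulatory signal beside that of the antigen receptor. CD28 supplies it when it binds CD80 or CD86 on antigen-presenting cells, and ICOS is a relative of CD28 that appears after activation and binds ICOS ligand. CTLA-4 binds the same ligands as CD28 and restrains the response, while PD-1 (Pdcd1), LAG-3 and TIGIT are further inhibitory receptors that bind PD-L1 or PD-L2, MHC class II, and the poliovirus receptor (Pvr). In tumours these receptors are known from activated, exhausted and regulatory T cells, and several are also found on NK cells.

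Totals ran from 37090034 to 40022755 estimated reads in 5 libraries and came to 20038047 in WT mouse 2, which stood apart. In that library 24.6% of reads fell on the ribosomal precursor Rn45s, against 1.46% to 7.12% in the others. The macrophage markers Adgre1 (528 to 966 CPM), Csf1r (1059 to 1633 CPM), Cd68 (171 to 331 CPM) and Mertk (70.0 to 111 CPM) were present in every library. CPM, the level used throughout, is the count scaled to library size with TMM factors. In bulk RNA, fewer cells of a type and less RNA per cell cannot be told apart.

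Of the 6 genes, 3 lie in a row on the plus strand of chromosome 1 (GRCm38, GENCODE M21): Cd28 from 60716800 to 60773359, Ctla4 from 60887000 to 60915832 and Icos from 60977927 to 61000320. Pdcd1 lies on the minus strand of the same chromosome from 94038305 to 94052553. Lag3 (chromosome 6, 124904361 to 124911705) and Tigit (chromosome 16, 43648867 to 43664146) are on the minus strand as well. All are protein-coding.

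RefSeq's promoter table for GRCm38.p6 matched 3 of the 6 genes: Ctla4 and Pdcd1, which passed the test between genotypes, and Tigit, whose groups overlapped. They are shown so that genes that did and did not pass can be compared. The 250 bases before each RefSeq start are printed 5′ to 3′ on the gene's strand, and capitals mark GGAAA or its reverse complement, the core letters that NFAT factors, activated through the T cell receptor, are known to bind. The window of Ctla4 is chr1:60908775-60909024 (plus strand), that of Pdcd1 chr1:94052554-94052803 (minus strand) and that of Tigit chr16:43664185-43664434 (minus strand). For Ctla4 the window lies inside the GENCODE span given above (60887000 to 60915832), since GENCODE and RefSeq place its start apart. Its window is thus not upstream of the GENCODE start.
Ctla4: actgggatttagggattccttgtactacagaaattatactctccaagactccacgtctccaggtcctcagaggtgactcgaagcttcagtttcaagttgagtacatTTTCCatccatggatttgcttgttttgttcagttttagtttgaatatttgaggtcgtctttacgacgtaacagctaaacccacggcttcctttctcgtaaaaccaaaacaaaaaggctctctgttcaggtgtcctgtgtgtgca
Pdcd1: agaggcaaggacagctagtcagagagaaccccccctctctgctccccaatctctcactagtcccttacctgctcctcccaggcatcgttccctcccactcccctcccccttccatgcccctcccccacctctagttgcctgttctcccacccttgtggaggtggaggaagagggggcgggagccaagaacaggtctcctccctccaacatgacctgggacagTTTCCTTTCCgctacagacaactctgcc
Tigit: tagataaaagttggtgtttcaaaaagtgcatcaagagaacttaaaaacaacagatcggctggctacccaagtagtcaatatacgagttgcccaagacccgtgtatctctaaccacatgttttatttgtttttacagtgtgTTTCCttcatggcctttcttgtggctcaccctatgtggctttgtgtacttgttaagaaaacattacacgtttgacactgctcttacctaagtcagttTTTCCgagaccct
GGAAA was found 1 time before Ctla4, 2 times before Pdcd1 and 2 times before Tigit, in each case as the reverse complement. The nearest match ended 140 bases before the start of Ctla4, 19 before that of Pdcd1 and 9 before that of Tigit. Over the 32851 promoters of the table, 55.6% hold the motif on either strand in the same window and 21.4% hold it at least 2 times. Neither TGANTCA nor TATAAA, searched on both strands, was found in the 3 windows, and 6.75% and 12.4% of all windows hold them. The GC content was 42.4% for Ctla4, 60.4% for Pdcd1 and 40.0% for Tigit, beside a median of 52.4%. The counts of these letters thus did not separate Tigit from the others.

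Among the inhibitory receptors, Ctla4 was far higher in libraries from KO tumours. It stood at 1.49 and 1.38 CPM in WT mice 1 and 2, at 16.5 and 13.4 CPM in clone 1 mice 1 and 2, and at 15.4 and 18.8 CPM in clone 2 mice 1 and 2. The groups did not overlap, and the lowest KO library was 8.95 times the highest WT library. The log2 fold change between KO and WT was 3.47 ± 0.26 (SE), from means of 16.0 ± 2.26 CPM (SD, n = 4) and 1.44 ± 0.08 CPM (SD, n = 2).

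Pdcd1, which encodes PD-1, showed the same separation at lower levels. It stood at 0.900 and 0.894 CPM in the WT libraries, at 8.09 and 6.35 CPM in clone 1 and at 9.39 and 8.34 CPM in clone 2. The lowest KO library was 7.06 times the highest WT library. Its log2 fold change was 3.16 ± 0.29 (SE). The WT value of mouse 2 rests on 13 reads, which by exact Poisson counting error alone allow 0.476 to 1.53 CPM (95% interval), still below every KO library.

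**Figure D1:**
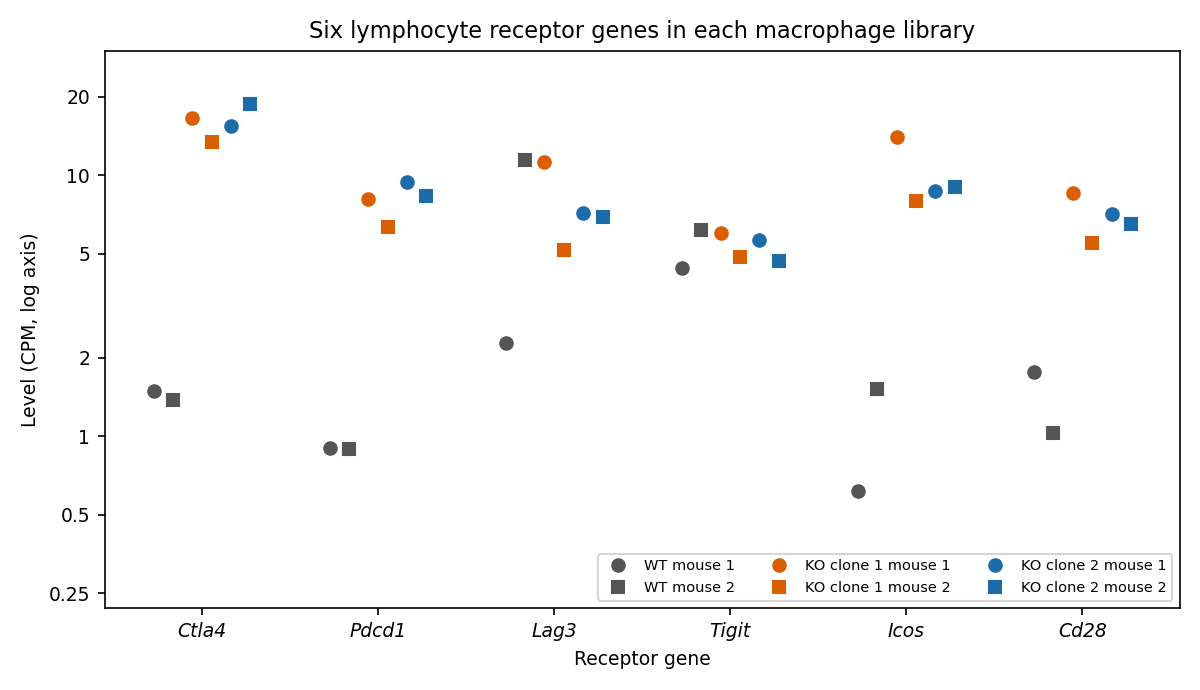
Level of each receptor gene in every library (CPM, log axis), with WT in grey, KO clone 1 in orange and KO clone 2 in blue, circles for mouse 1 and squares for mouse 2. For Ctla4, Pdcd1, Icos and Cd28 the 4 KO libraries lie above both WT libraries, while for Lag3 and Tigit the groups overlap.

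Lag3, the receptor for MHC class II, did not separate the genotypes. It stood at 2.28 CPM in WT mouse 1 and 11.5 CPM in WT mouse 2, the lowest and the highest of the 6 values, with 11.2 and 5.18 CPM in clone 1 and 7.17 and 6.93 CPM in clone 2. The WT libraries therefore enclosed all KO libraries. The log2 fold change of 0.18 ± 0.59 (SE) rests on which WT library is used. Leaving out WT mouse 2 gave 1.71, and leaving out WT mouse 1 gave -0.58. The counting intervals of the WT libraries did not meet, since 104 and 167 reads give 1.87 to 2.77 CPM and 9.81 to 13.4 CPM (exact Poisson, 95%). WT mouse 2, the library rich in Rn45s, also held the highest levels of the transcription factors Runx3 (141 CPM, against 19.3 to 47.8 in the others) and Nfatc2 (99.8 CPM, against 14.8 to 53.5). The part of library quality in these values was not tested.

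Tigit, which binds Pvr, overlapped between the genotypes. Its values were 4.41 and 6.19 CPM in WT, 6.01 and 4.84 CPM in clone 1 and 5.67 and 4.69 CPM in clone 2. All KO libraries lay between the WT libraries. The means were 5.30 ± 0.64 CPM (SD, n = 4) and 5.30 ± 1.26 CPM (SD, n = 2), a log2 fold change of 0.01 ± 0.25 (SE) with a 95% interval from -0.575 to 0.594. Leaving out WT mouse 1 gave -0.21 and leaving out WT mouse 2 gave 0.24.

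Both costimulatory receptors had higher levels in KO libraries without overlap, but neither passed the test over all genes. Icos stood at 0.615 and 1.51 CPM in WT, at 14.0 and 7.995 CPM in clone 1 and at 8.72 and 8.99 CPM in clone 2. The lowest KO library was 5.28 times the highest WT library, and the log2 fold change was 3.32 ± 0.47 (SE). Clone 1 mouse 1 stood above the other 3 KO libraries, which lay close together.

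Cd28 was at 1.76 and 1.03 CPM in WT, at 8.56 and 5.50 CPM in clone 1 and at 7.10 and 6.52 CPM in clone 2. Its lowest KO library was 3.13 times the highest WT library. The log2 fold change was 2.27 ± 0.34 (SE), the smallest among the 4 genes that separated. From counts within a library, Ctla4 came to 0.85 and 1.33 times Cd28 in WT and to 1.93 to 2.88 times Cd28 in KO. Icos over Cd28 was 0.35 in WT mouse 1, 1.47 in WT mouse 2 and 1.23 to 1.64 in KO, so for this pair WT mouse 2 lay among the KO libraries.

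In KO against WT, 2 of the 6 receptors, Ctla4 and Pdcd1, passed edgeR's quasi-likelihood test as higher at an adjusted p of 0.05 over all genes. Over all genes tested this share was 0.129%. An unadjusted p under 0.05 in either direction was met by 4 of the 6 and by 2122 of the 15560 genes tested. Counts at that threshold in the lists below stand beside this background. DESeq2 called 499 genes in either direction, the background of its list counts. The lowest KO library was above the highest WT library for 4 of the 6, against 12.9% of all genes. Since the receptors were chosen with this contrast known, these counts describe them and support nothing further. Their median log2 fold change was 2.71, that of all genes 0.00. DESeq2 called 4 of the 6 as higher, the former 2 with Icos and Cd28 (all genes 2.31%). Without WT mouse 2, 3 were called, Ctla4, Pdcd1 and Icos (all genes 0.168%), while without WT mouse 1 it was 4, in a fit that called 21.9% of all genes as higher. Leaving out clone 1 mouse 1, clone 2 mouse 1 or clone 2 mouse 2 left 0 calls. Each of these fits called 1 gene over all genes tested. Leaving out clone 1 mouse 2 left 1, that of Ctla4, in a fit that called 4 genes in all. With each clone as its own group, 0 passed for the clones' mean against WT, where 1 gene passed in all. All 4 fold changes stayed positive. Over the 15 settings run Ctla4 ran from 3.38 to 3.55 and Pdcd1 from 3.06 to 3.26, Icos from 2.72 to 3.98 and Cd28 from 1.95 to 2.75.

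To compare the genes with each other, levels were divided by the length of their merged exons, which runs from 919 bases for Tigit to 6122 for Cd28. In KO libraries the order of levels in CPM per kilobase was Ctla4 at 6.87 ± 0.97 (SD, n = 4), Tigit at 5.77 ± 0.70, Pdcd1 at 4.17 ± 0.65, Lag3 at 3.61 ± 1.21, Icos at 2.90 ± 0.80 and Cd28 at 1.13 ± 0.21. The ranges of Ctla4 and Tigit overlapped, as did those of Pdcd1 and Lag3 and of Lag3 and Icos. Tigit also overlapped with Lag3 (at most 5.31), and Pdcd1 (at least 3.29) with Icos (at most 4.08). Within the KO libraries every value of Tigit (at least 5.10) was above every value of Pdcd1 (at most 4.86). Icos (at least 2.33) was above Cd28 (at most 1.40) there as well. In WT libraries Tigit led at 5.77 ± 1.37 CPM per kilobase (SD, n = 2), followed by Lag3 at 3.27 ± 3.09, and the other 4 lay between 0.228 and 0.616 on average. Tigit was thus the most abundant of the 6 per length in both WT libraries, and Ctla4 in all 4 KO libraries, the closest being clone 2 mouse 1 with 6.60 against 6.17.

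Clone against clone, no receptor passed the test. The 2 clones carry the same genotype, and the fit with 3 groups tests whether they differ. Clone 2 minus clone 1 was 0.29 ± 0.27 (SE) on the log2 scale for Pdcd1, with a 95% interval from -0.351 to 0.941. It was 0.19 ± 0.25 (-0.403 to 0.791) for Ctla4 and -0.07 ± 0.31 (-0.805 to 0.67) for Tigit. For Icos it was -0.31 ± 0.44 (-1.38 to 0.752), for Cd28 -0.05 ± 0.36 (-0.911 to 0.819) and for Lag3 -0.22 ± 0.72 (-1.93 to 1.5). By edgeR's quasi-likelihood test 0 of 6 passed, where the share of all genes called was 0%, and 0 had an unadjusted p under 0.05 (all genes 3.23%). DESeq2 called 0 of 6 (all genes 0.752%) and limma-voom 0 of 6, with 0 calls over all genes. The interval of Lag3 is the widest, and a difference between clones inside it was not detectable with these libraries.

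Against WT, the clones gave side by side 3.37 ± 0.28 (SE) for clone 1 and 3.56 ± 0.29 for clone 2 in Ctla4, and 3.004 ± 0.31 and 3.30 ± 0.31 in Pdcd1. Icos gave 3.47 ± 0.52 and 3.16 ± 0.51, and Cd28 2.29 ± 0.39 and 2.24 ± 0.39. Lag3 gave 0.28 ± 0.73 and 0.07 ± 0.73, and Tigit 0.04 ± 0.31 and -0.02 ± 0.31. These contrasts share the WT libraries. By edgeR 0 of the 6 passed in clone 1 and 0 in clone 2, while the share of all genes called as higher was 0.00643% in each. At an unadjusted p under 0.05 there were 4 in clone 1 (all genes 7.1%) and 4 in clone 2 (all genes 11.3%). DESeq2 called 4 in clone 1 (all genes 1.37%) and 4 in clone 2 (all genes 2.08%). Without WT mouse 2, 3 passed in clone 1 (all genes 0.236%) and 3 in clone 2 (all genes 0.908%). Without WT mouse 1, 4 passed in each, where 20.8% of all genes were called as higher in clone 1 and 22.8% in clone 2.

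**Figure D2:**
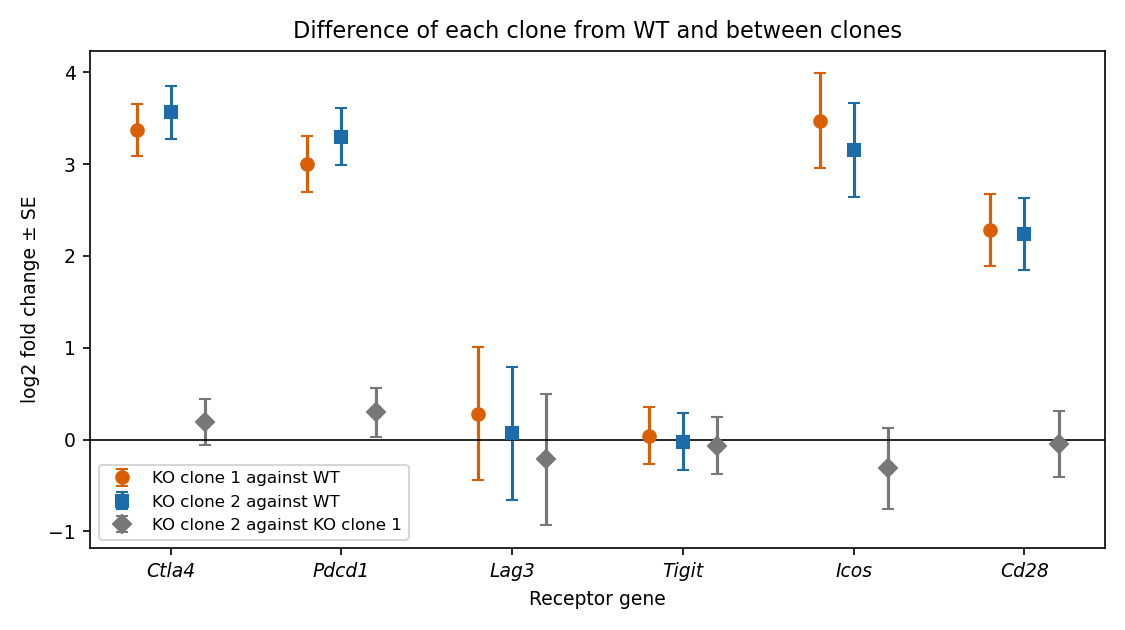
Log2 fold change with its standard error for each receptor gene, for KO clone 1 against WT (orange), KO clone 2 against WT (blue) and KO clone 2 against clone 1 (grey), from 2 libraries a group. The clone values against WT lie between 2.24 and 3.56 for Ctla4, Pdcd1, Icos and Cd28 and between -0.02 and 0.28 for Lag3 and Tigit.

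Within the KO libraries, clone 1 mouse 1 had the highest value of Lag3, Tigit, Icos and Cd28. Clone 2 mouse 1 had the highest Pdcd1 and clone 2 mouse 2 the highest Ctla4. Clone 1 mouse 2 was lowest in 5 of the 6, all but Tigit. The spread over the 4 libraries, as SD in percent of the mean, was 12.0% for Tigit, 14.1% for Ctla4, 15.6% for Pdcd1, 18.5% for Cd28, 27.7% for Icos and 33.4% for Lag3.

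Markers of T cells were measured beside the receptors. Of 14 listed T cell genes, which include Cd28, 13 were tested and 13 had positive values, with a median of 1.98. Cd3g, one of the CD3 subunits, passed over all genes as higher and none passed as lower, while 12 had an unadjusted p under 0.05. The lowest KO library was above the highest WT library for 12. Their summed level reached 17.7 and 30.5 CPM in the WT libraries, against 61.8 to 105 CPM in KO. The defining markers differed in how far they moved. Cd3g stood at 0.922 and 0.619 CPM in WT, against 7.42 to 14.9 CPM in KO, and Cd247 at 0.439 and 1.17 against 2.84 to 5.09 CPM. Cd3e overlapped, at 0.0220 and 1.86 CPM in WT, against 0.443 to 2.84 CPM in KO, and Cd3d stood at 4.06 and 4.68 against 5.46 to 7.85 CPM. Their part in the receptors' difference was not tested. The number of T cell genes called was 8 with DESeq2 and 3 without a filter. It was 0 without any 1 of the KO libraries, with limma-voom and for the clones' mean.

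Set beside the Cd3 chains, the receptors as a sum did not separate the genotypes. The 6 receptors summed to 11.5 and 22.5 CPM in WT, against 43.2 to 64.4 CPM in KO libraries, and Cd3e, Cd3d, Cd3g and Cd247 to 5.45 and 8.32 against 16.7 to 28.6 CPM. The ratio of these sums was 2.11 and 2.70 in WT, 2.42 and 2.59 in clone 1 and 1.87 and 2.56 in clone 2. On the log2 scale KO minus WT was -0.03, within a spread of 0.23 (SD within genotypes). The value hangs on the denominator. It was 1.15 over Cd3e and Cd3d alone, -0.11 over the whole T cell list and -0.69 over the NK cell list.

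The make-up of the sum did differ. Ctla4 took 13% and 6.12% of it in WT and 25.6% to 34.6% in KO libraries, while Tigit took 38.5% and 27.5% in WT and 8.64% to 11.2% in KO. From counts within a library, Ctla4 over Tigit was 0.338 and 0.222 in WT and 2.71 to 4.01 in KO, and Pdcd1 over Tigit was 0.204 and 0.144 against 1.31 to 1.78. These ratios do not depend on the scaling of the library. Pdcd1 over Cd8a, the alpha chain of the CD8 coreceptor of cytotoxic T cells, was 0.383 and 0.22 in WT and 0.419 to 0.595 in KO. Ctla4 over Foxp3, the lineage factor of regulatory T cells, came to 1.7 and 0.606 in WT and 9.87 to 30 in KO.

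**Figure D3:**
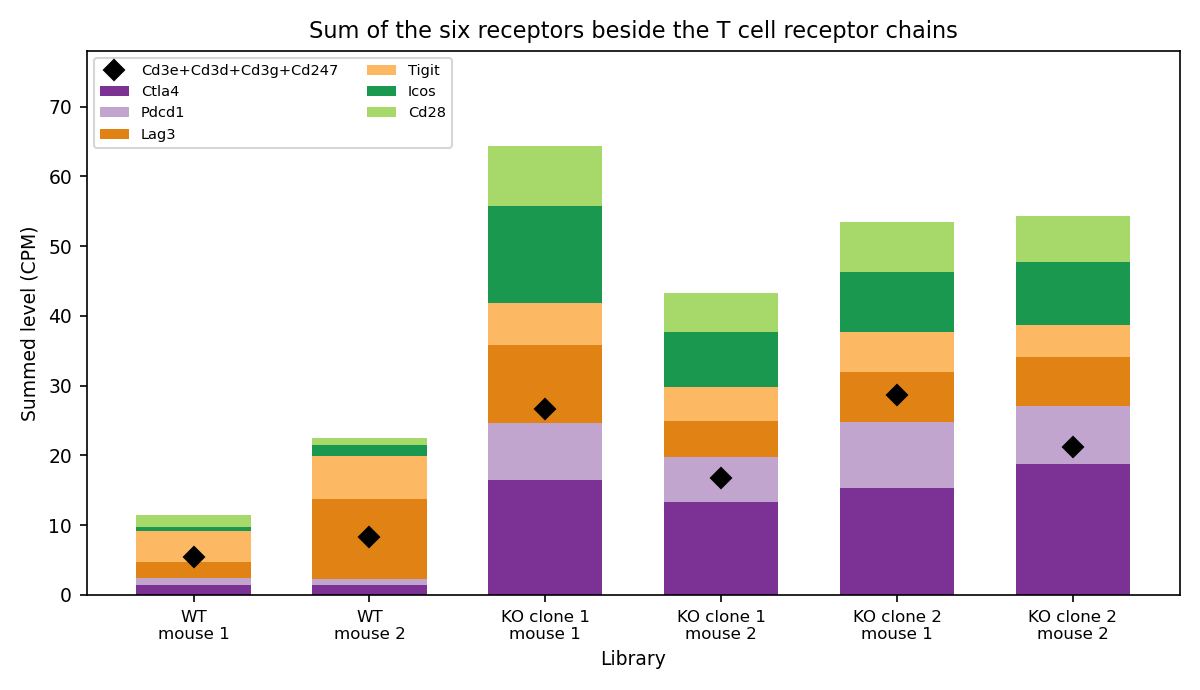
Stacked levels of the 6 receptor genes in each library (bars, CPM) beside the summed level of 4 Cd3 chain genes (black diamonds). The bars reach 11.5 and 22.5 CPM in WT, against 43.2 to 64.4 CPM in KO libraries, and the diamonds stand at 5.45 to 28.6 CPM.

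No regulatory T cell marker passed. Of 12 tested, 9 had positive values (median 0.82) and 0 passed by edgeR, while 5 had an unadjusted p under 0.05 and DESeq2 called 4. Foxp3 was at 0.879 and 2.27 CPM in WT, against 0.625 to 1.67 CPM in KO, and Il2ra, the IL-2 receptor alpha chain, at 9.91 and 40.7 against 9.09 to 51 CPM, both overlapping. Ikzf2 (5.92 to 6.22 against 13.2 to 17.2 CPM) and Ccr8 (0.413 to 0.439 against 0.824 to 2.21 CPM) did not overlap. Summed levels, which Capg and Nrp1 dominate, were 497 and 640 CPM in WT, against 528 to 681 CPM in KO.

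Among NK cell markers all 13 tested had positive values with a median of 2.42, 11 separated the groups and 1, Klrk1, passed. The number called was 7 with DESeq2 and 4 without a filter. It was 0 without clone 1 mouse 1, clone 2 mouse 1 or clone 2 mouse 2 and for the clones' mean. Their sum was 18.9 and 25.2 CPM in WT, against 84.4 to 161 CPM in KO. The defining markers were low, with Ncr1 at 0.132 and 0 CPM in WT, against 0.469 to 2.31 CPM in KO, Klrb1c at 0.637 and 0.757 against 0.990 to 1.91 CPM, Klra8 at 0.198 and 0 against 0.208 to 1.5 CPM and Klrd1 at 0.857 and 0.482 against 3.96 to 10 CPM. Of the B and plasma cell genes, 5 of 10 were tested and 0 passed by edgeR (1 at an unadjusted p under 0.05, 1 by DESeq2), 3 of 5 values being positive (median 0.15), with a sum of 10.4 and 6.54 CPM in WT, against 11 to 15.9 CPM in KO. Cd79a, a chain of the B cell receptor, was too low to be tested and overlapped, at 0.264 and 0 CPM in WT, against 0.0962 to 0.254 CPM in KO. Cd79b, another chain of that receptor and the 1 gene under the unadjusted threshold, did not overlap. It stood at 4.68 and 3.10 CPM in WT, against 7.76 to 12.3 CPM in KO (1.37 ± 0.305, SE). Ms4a1 overlapped, at 0.922 and 0.344 CPM in WT, against 0.443 to 1.58 CPM in KO. Dendritic cell genes summed to 355 and 538 CPM in WT, against 281 to 472 CPM in KO, with 6 of 10 positive (median 0.77) and 1, Dpp4, passing as higher. An unadjusted p under 0.05 was met by 5, and 6 separated the groups as higher and 0 as lower. Among those that separated were Flt3 (0.966 and 1.10 CPM in WT, 1.59 to 3.10 CPM in KO) and Zbtb46 (2.24 and 2.41 against 2.89 to 3.59 CPM). No dendritic cell gene was called with RLE factors, limma-voom or the replicate block. None was called with a stricter filter (2 or more libraries with 5 CPM or more), nor for the clones' mean. Leaving out any 1 of the KO libraries also gave 0, while DESeq2 called 3 and the unfiltered fit 2. Macrophage markers had 5 of 12 positive values, a median of -0.08 and 0 calls by edgeR. An unadjusted p under 0.05 was met by 3 (2122 of all 15560 genes), and DESeq2 called 1 (499 of all genes). These 3 were higher in KO without overlap. Adgre1 stood at 667 and 528 CPM in WT, against 767 to 966 CPM in KO. Fcgr1 stood at 267 and 284 against 444 to 483 CPM, and Lyz2 at 1999 and 1608 against 2430 to 3336 CPM. The markers summed to 10780 and 14120 CPM in WT, against 11530 to 13370 CPM in KO. The part of NK, B or dendritic cell RNA in the receptors' values was not tested.

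Other receptors of the same functional classes were described from lists. Of 16 other costimulatory receptors 14 were tested, 13 had positive values and the median was 1.83. As higher 3 passed and none as lower: Cd226, which competes with TIGIT for Pvr (3.99 ± 0.50, SE), the adhesion receptor Cd2 (2.70 ± 0.31) and Klrk1, which encodes NKG2D (2.62 ± 0.23). The number called in this list was 7 with DESeq2, 4 without a filter, 1 with limma-voom and 0 for the clones' mean. It was 1 without clone 1 mouse 2 and 0 without any 1 of the other KO libraries. Cd226 stood at 0.483 and 0.138 CPM in WT, against 4.54 to 7.53 CPM in KO. It thus separated the genotypes where Tigit, which shares its ligand, did not. Tnfrsf4, which encodes OX40, did not pass, at 0.725 and 0.413 CPM in WT, against 3.05 to 4.23 CPM in KO. Tnfrsf14 had the one negative value (-0.75 ± 0.42), with 76.8 CPM in WT mouse 2 and 21.7 to 32.6 CPM in the others.

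Among 14 other inhibitory receptors, all tested, 13 had positive values (median 0.94) and 0 passed by edgeR, while 10 had an unadjusted p under 0.05 and DESeq2 called 5. Leaving out any 1 of the KO libraries gave 0 calls, and the unfiltered fit gave 3. Klrc1, which encodes NKG2A (3.67 ± 0.50, SE), Klrg1 (3.86 ± 0.68), Cd200r4 (1.39 ± 0.26) and Cd96 (3.83 ± 0.76) had the smallest p. Klrc1 stood at 1.16 and 0.413 CPM in WT, against 7.27 to 15.3 CPM in KO. Cd96 and Klrg1 were at 0 in WT mouse 2. Havcr2, which encodes TIM-3 and which macrophages also express, stood at 102 and 79.2 CPM in WT, against 131 to 170 CPM in KO, and Vsir (VISTA) at 351 and 486 against 377 to 514 CPM.

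The ligands of these receptors are carried largely by myeloid and tumour cells. Of 20 listed symbols 18 were in the table and 13 were tested. Of these 8 had positive values, the median was 0.18 and 0 passed by edgeR in either direction. An unadjusted p under 0.05 was met by 3 (2122 of all 15560 genes), and DESeq2 called 2 (499 of all genes). Cd86 stood at 68.9 and 43.8 CPM in WT, against 101 to 126 CPM in KO (1.01 ± 0.23, SE) and Cd80 at 5.62 and 6.26 against 9.72 to 12.3 CPM (0.91 ± 0.21). These 2 ligands of CTLA-4 and CD28 did not overlap between the groups, though neither passed. Cd274, which encodes PD-L1, overlapped, at 105 and 274 CPM in WT, against 116 to 273 CPM in KO, as did Icosl (54.9 and 70.9 against 46.4 to 61.7 CPM) and Pvr (35.1 and 29.0 against 28.3 to 40.3 CPM).

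In the list of receptor signalling 19 of 20 were tested, 13 were positive, the median was 0.20 and 0 passed by edgeR, while 5 had an unadjusted p under 0.05 and DESeq2 called 4. The T cell kinase gene Zap70 (0.703 and 0.894 CPM in WT, 3.67 to 6.71 CPM in KO) did not overlap, nor did the adaptor gene Sh2d2a (2.75 and 2.34 against 5.55 to 10.7 CPM). Lck overlapped, at 1.25 and 4.47 CPM in WT, against 3.70 to 7.80 CPM in KO. Ptpn6 and Ptpn11, which encode the phosphatases SHP-1 and SHP-2 that act below PD-1, stood at 264 and 325 against 306 to 352 CPM and at 117 and 215 against 131 to 142 CPM. Of 20 tested regulators of effector and exhausted T cells, 14 were positive (median 0.37) and 0 passed by edgeR, while 8 had an unadjusted p under 0.05 and DESeq2 called 2. Ikzf2 (1.28 ± 0.21, SE), Irf4 (1.96 ± 0.40), Batf (0.77 ± 0.22) and Nr4a2 (0.81 ± 0.24) had the smallest p among positive values. Among negative values Id3 (-0.84 ± 0.31) and Runx3 (-1.55 ± 0.62) had an unadjusted p under 0.05, and neither passed. Id3 stood at 6.74 and 10.7 CPM in WT, above the 3.82 to 6.54 CPM of the KO libraries, whereas Runx3 overlapped. Tox, a regulator of T cell exhaustion, was low but did not overlap, at 0.0439 and 0.482 CPM in WT, against 0.521 to 1.35 CPM in KO (2.20 ± 0.91, SE). Its WT values rest on 2 and 7 reads, and it did not pass.

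**Figure D4:**
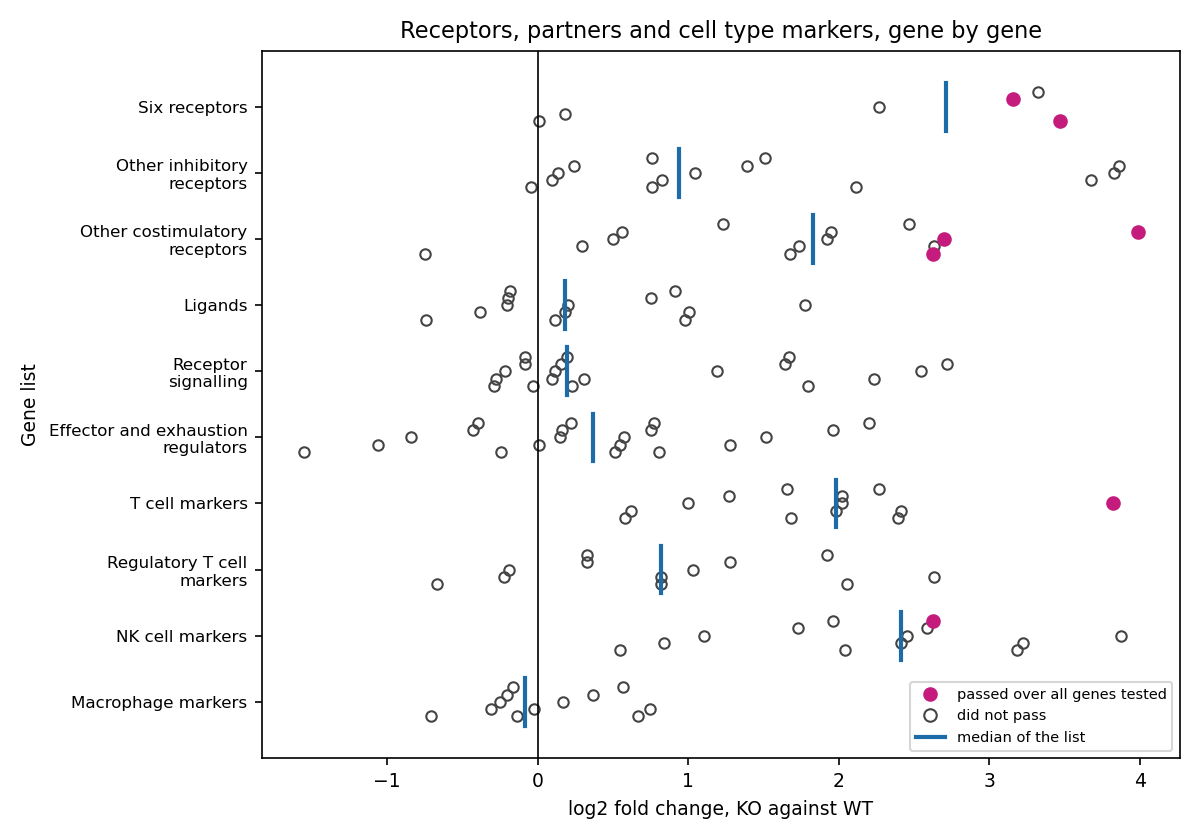
Log2 fold change between KO and WT of every tested gene in 10 lists, with filled points for genes that passed over all genes tested, open points for the others and a bar at each median. The receptors (median 2.71), other costimulatory receptors (1.83), T cell (1.98) and NK cell markers (2.42) lie to the right, while ligands (0.18) and macrophage markers (-0.08) centre near 0.

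The genes whose levels over the 6 libraries were most like each receptor were then read from Pearson's r of log2(CPM + 0.5), among 12220 genes with a mean of at least 1 CPM. The points share libraries and the split into WT and KO, and r within a genotype was not computed. Ctla4 was most like Gimap7 (r = 0.998), Pdcd1 (0.995) and Klrk1 (0.994), and Pdcd1 was most like Klrk1 (0.9999), Tgtp1 (0.999) and Parp11 (0.998). Cd28 was most like Ifit1bl1 (0.997), Ifi204 (0.996) and Ifih1 (0.996), and Icos like Irf7 (0.995), B4galt5 (0.994) and Cfb (0.993). Lag3 was most like Acvrl1 (0.993), Il6ra (0.993) and Susd6 (0.992), genes with means that hardly differ between genotypes, such as 95.4 CPM in WT and 101 CPM in KO for Acvrl1. Tigit was most like Fam169b (0.996), Casp6 (0.995) and Vill (0.987). Above an r of 0.95 there were 202 genes for Cd28, 166 for Pdcd1, 148 for Ctla4, 100 for Icos, 48 for Lag3 and 14 for Tigit.

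Neighbouring genes on the chromosome gave a mixed picture. Ctla4 lies 113640 bases from Cd28 and 62094 from Icos, and all 3 separated the genotypes. The genes on either side of this row did not pass. Raph1, next to Cd28, stood at 14.9 and 26.4 CPM in WT, against 12.8 to 34.7 CPM in KO, and Pard3b, beyond Icos, at 1.91 and 1.51 against 0.599 to 0.992 CPM. Beside Pdcd1, Neu4 stayed at 0.432 CPM or lower and Fam174a at 20.3 and 31.0 against 22.9 to 31.8 CPM. Lag3 lies between Cd4, 16139 bases away, and Ptms, 1975 bases away. Cd4, the coreceptor of helper T cells, stood at 1.80 and 2.61 CPM in WT, against 4.35 to 6.56 CPM in KO. Ptms, which encodes parathymosin, was at 241 CPM in WT mouse 2 and at 103 to 116 CPM in the other 5, so it shared with Lag3 its highest value in that library. Next to Tigit, Zbtb20 stood at 5.78 and 8.39 against 6.20 to 11.5 CPM, and Drd3 had at most 0.0220 CPM.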

How the data were processed

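Values are estimated reads per gene symbol, deposited by the authors as whole-number estimated counts without scaling, for 6 libraries. The submitters' processing notes list Salmon 0.7.2 and mm10, with no role or order. Transcript set, summing to genes and use of strand were not given in the sources used here. Per the labels' protocols, total RNA was depleted of ribosomal RNA before TruSeq library construction. Replicates of a group were not copies (chi-square per degree of freedom 86 to 929).

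The quasi-likelihood F test of edgeR 4.0.16 (under R 4.3.3) followed filterByExpr (minimum count 10, total 15) and TMM scaling, with Benjamini-Hochberg adjustment over all 15560 genes and a threshold of 0.05. KO against WT was fitted with 2 genotype levels and clones with 3 groups. A standard error is the absolute log2 fold change over the root of F. Positions and exon lengths come from GENCODE M21, which holds 93.9% of the symbols. Counting intervals cover counting error only. The fits were tested on simulated data.

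The receptors and all lists were chosen with earlier results of these data known. Named are the 6 receptors, in other lists up to 4 genes a direction with the smallest p and the first 4 markers, the 3 genes most like each receptor, and the nearest protein-coding neighbours. Other genes named from the lists, and the count ratios, were picked out after their values were seen. Alternatives were RLE factors, DESeq2 1.42.0, limma-voom (limma 3.58.1), no filter, a stricter filter (at least 5 CPM in at least 2 libraries), removal of Rn45s, the mouse number as a block and leaving out each library, where a lone library is assumed to vary like the other group.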

Additional observations from a re-analysis of the deposited data

Results flagged for a closer look

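Icos in clone 1 mouse 1 stood apart from the other KO libraries. At 14.0 CPM against 7.995, 8.72 and 8.99 CPM, its gap to the nearest library was 0.834 of the whole range, above Dixon's critical value for 4 samples at the 95% level. This was 1 of 8 sets of 4 KO libraries examined in this way, and about 1 in 20 such sets passes by chance. The same library was highest in Gzmb, which encodes granzyme B (59.4 CPM against 19.5 to 21.4 in the other KO libraries), and in Il2ra (51 against 9.09 to 14.5 CPM). Without it the log2 fold change of Icos between KO and WT was 3.10.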

How the results depend on the processing

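The count of receptors called in KO against WT was 2 with RLE factors, limma-voom, the stricter filter, Rn45s removed and the mouse number as a replicate block, each time Ctla4 and Pdcd1. It was 4 with DESeq2, 4 without a filter and 0 when 3 groups were fitted and the clones averaged, and leaving out a library gave 0 to 4. In clone 1 against WT it was 4 with DESeq2, 4 without a filter and 0 to 4 without a library. In clone 2 it was 2 with RLE factors, 4 with DESeq2, 4 without a filter, 2 with Rn45s removed and 0 to 4 without a library. Between clones it was 0 in every setting run. Genes called in the other lists together numbered 5, against 39 with DESeq2, 1 with limma-voom, 18 without a filter, 3 with the stricter filter, 0 for the mean of the clones and 0 to 65 without a library. The cause of these differences was not tested. Over all genes edgeR called 21 in KO against WT, DESeq2 499, the unfiltered fit 111 and the fit for the mean of the clones 1. RLE factors called 18 there, limma-voom 16, the stricter filter 14 and the fit without Rn45s 21. In clone 1 against WT, DESeq2 called 271 genes and the unfiltered fit 123. In clone 2, RLE factors called 9, DESeq2 465, the unfiltered fit 229 and the fit without Rn45s 8. The summed receptors per Cd3 chain differed by -0.03, by 1.15 over Cd3e and Cd3d and by -0.69 over NK cell genes. Ctla4, Pdcd1, Icos and Cd28 were higher in KO libraries in all 15 settings. Tigit changed sign with the stricter filter (-0.041) and between -0.21 and 0.24 without a library, and Lag3 between -0.58 and 1.71. Between clones, leaving out a library moved Lag3 from -0.66 to 0.44, Tigit from -0.21 to 0.10, Icos from -0.66 to 0.15 and Cd28 from -0.33 to 0.31. Mouse numbers are shared between groups, but same-numbered libraries did not deviate together (r of -0.245 to 0.217 over genes, 1 pair of groups above 0.1 and both pairs with WT at 0.0522 or lower), and the replicate block took the calls over all genes from 21 to 15. WT mouse 2 has the fewest reads, so low receptors such as Pdcd1 (13 reads), Cd28 (15) and Ctla4 (20) are least precise there.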
